A study of Mus musculus with 33 samples.

Results

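Organoid AKP, a mouse colon organoid line carrying an engineered cancer genotype, was compared with the non-induced control organoids that carry the same inducible alleles. Every library titled organoid AKP (6) and every library titled control (6) entered, 12 of the 33 libraries of the series, and no measured value took part in that choice. The conditional alleles of both groups included floxed *Apc* and floxed *Trp53*, and both carried OptoCre, a Cre recombinase that is made under doxycycline and switched on by blue light. OptoCre was delivered by lentivirus with a fluorescent recombination reporter, and infected cells were selected with puromycin. Organoid AKP had received blue light as organoids and was then passaged alongside mini-colon tumour lines, whereas control organoids were labelled as non-induced AKP without treatment. All organoids were kept in basal medium for the last day before RNA was taken. This medium lacked growth factors and N-acetylcysteine, among other supplements, and the paper reports that healthy organoids did not grow in it. Organoid AKP, too, is reported to proliferate less in it than in vivo AKP and crypt-derived mini-colon AKP lines. Colon organoids had been set up in a full medium with EGF, noggin, R-spondin, WNT3A and nicotinamide. Tumour organoids were expanded without those additions, so the medium before the last day may have differed between the lines. It is not given for each line, and its part in the results cannot be told apart from that of the genotype. RNA was extracted from dissociated organoids and sequenced with QuantSeq, which reads transcript 3′ ends, so these reads do not show the recombined alleles. Each line had 3 libraries whose names carry the letter E and 3 with F, a letter that the sources do not explain and that entered the model as a block. The study's text calls the organoid AKP replicates cultures, the bulk RNA samples independent sets, and the OptoCre lines of each replication newly made. The labels tie no library to a culture, a mouse or a separately made line, so that p-values measure how these libraries scatter, and how much of that is technical was not tested.

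In the colon, WNT signalling keeps stem cells dividing at the crypt base, and their progeny differentiate into absorptive colonocytes or mucus-secreting goblet cells as they move up. APC holds the WNT effector β-catenin in check, growth factor receptors signal to the ERK kinases, and p53 turns on genes that halt the cell cycle or kill damaged cells. Loss of APC and loss of p53 are both common in colorectal cancer.

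The lines differed throughout the transcriptome, with replication, mitosis, WNT feedback, ribosome and amino acid stress genes higher in organoid AKP and colonocyte, goblet, p53 target, junction and fat oxidation genes lower. Levels are given as TMM-scaled counts per 1000000 (CPM), changes as log2 fold changes of organoid AKP over control from edgeR with their standard errors, and a gene was called where its Benjamini-Hochberg adjusted p was under 0.05. A gene said to rise, fall or change by a number was called, and the number is its log2 fold change. Of 12768 genes tested, 4937 (38.7%) were called higher and 4889 (38.3%) lower in organoid AKP, and 2554 (20%) were called and higher by at least 1 log2 unit against 2598 (20.3%) lower by as much. Counts of list members below are read against these shares of all genes, and the median log2 fold change of all genes was 0.00. To be tested, a gene needed 1 CPM or more in 3 or more of the 12 libraries. A gene under 1 CPM in every library of a line passed through the other line alone, so its direction was largely set. The 6 organoid AKP and 6 control libraries did not overlap for 6720 genes (52.63%). The first principal component, which separated the lines, held 83.3% of the variance and the second, which separated the letters, held 5.81%. Library totals were 2751409 to 3594398 counts (E) and 5613299 to 7232715 (F) in organoid AKP, and 2660584 to 2841963 (E) and 6057927 to 7852555 (F) in control, so the letter goes with depth in both lines. Mitochondrially encoded transcripts took 2.53% to 3.39% of counts in organoid AKP and 3.93% to 4.87% in control.

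**Figure D1:**
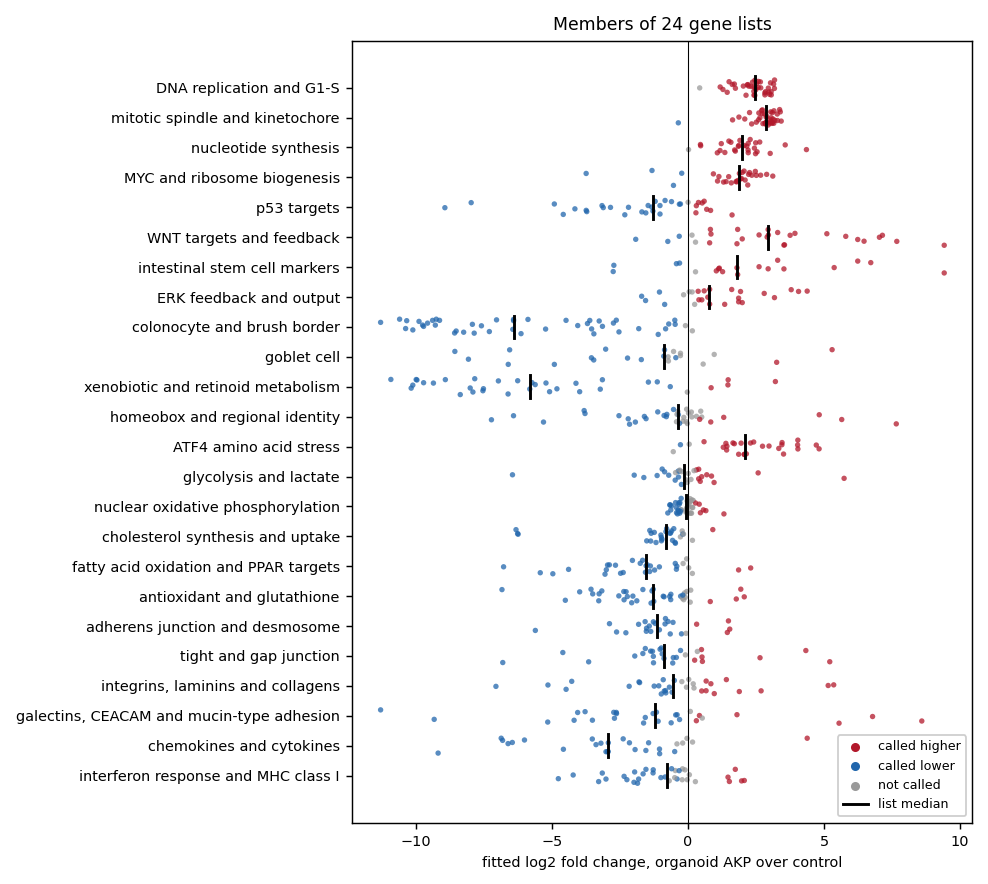
Fitted log2 fold change of organoid AKP over control for the tested members of 24 gene lists, one point per gene. Red points were called higher, blue called lower and grey not called, and black bars mark list medians, which run from 2.46 for DNA replication and 2.88 for mitosis to −5.81 for xenobiotic metabolism and −6.41 for colonocyte genes.

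Both lines carried epithelial transcripts, but at unequal levels. Of 12 tested epithelial identity genes, 0 were higher and 11 lower in organoid AKP, and their summed level was 3976 to 4318 CPM in organoid AKP against 15690 to 16370 CPM in control. The list is not one of general epithelial genes alone, since it holds intestinal genes named again below (*Cdx2*, *Cdh17*, *Lgals4*). Keratin 8 (*Krt8*) averaged 158 ± 23.2 CPM in organoid AKP, against 1035 ± 49.7 CPM in control (SD, n = 6 each). *Epcam*, the epithelial adhesion molecule, averaged 594 ± 71.8 and 1443 ± 207 CPM in the same order. Markers of other cell types were low in both lines. The 14 fibroblast and muscle markers summed to 5.66 to 24.3 CPM in organoid AKP, against 3.52 to 5.01 CPM in control, 2 were tested, and only *Vim*, the intermediate filament vimentin, was called, at 11.5 ± 7.71 CPM in organoid AKP, against 0.181 ± 0.200 CPM in control. The members *Lum* and *Thy1* had no count, and the other untested members are not given singly here. The 13 immune markers summed to 6.21 to 12.98 CPM in organoid AKP, against 6.25 to 9.91 CPM in control, with *S100a8* called higher among 2 tested and the T cell gene *Cd3e* without a count. The 9 endothelial markers summed to 4.66 to 14.5 CPM in organoid AKP, against 0.929 to 3.47 CPM in control. *Flt1* and *Prox1* were called higher among 4 tested, and the members *Cdh5* and *Kdr* had no count. *Vim*, *S100a8*, *Flt1* and *Prox1* stayed under 1 CPM in every control library, so they passed the filter through organoid AKP alone. In bulk libraries, fewer cells of a type and less RNA per cell cannot be told apart.

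Levels of the engineered genes are given first. *Trp53*, the p53 gene on chromosome 11 (69469669 to 69482701, GRCm39), was at 1.04 to 3.72 CPM with a median of 1.35 in organoid AKP, against 14.7 to 18.8 CPM with a median of 17.1 in control. It was lower in organoid AKP, with a log2 fold change of −3.33 (SE 0.21, adjusted p = 5.49e-13), with a remnant in every library. In in vivo AKP, from mice with the same conditional alleles, *Trp53* averaged 25.5 CPM against 17.1 CPM in control (all lines scaled together). The level of *Trp53* alone therefore checks no deletion. *Apc* (chromosome 18, 34353942 to 34455605) averaged 101 ± 4.34 CPM in organoid AKP, against 60.3 ± 7.35 CPM in control, and the log2 fold change was 0.76 (adjusted p = 6.32e-09). Sequences at the 3′ end of *Apc* can lie outside the deleted part and check no deletion there. The WNT feedback genes, ERK output genes and p53 targets below cannot check the labels alone. Basal medium lacked growth factors, and the medium before it may have differed between the lines.

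Genes of DNA replication and mitosis were higher in organoid AKP with few exceptions. The RNA came after a day in basal medium, where the paper reports that healthy organoids did not grow. The paper also reports reduced proliferation of organoid AKP there, next to in vivo AKP and crypt-derived mini-colon AKP lines. The part of that medium in the difference was not tested. Of 39 genes of DNA replication and the G1-S transition, 38 were called higher and 0 lower, all called members by at least 1 log2 unit, and their summed level was 3273 to 4928 CPM in organoid AKP against 624 to 841 CPM in control. *Cdt1*, which licenses replication origins, was at 149 to 212 CPM with a mean of 172 ± 26.7 (SD) in organoid AKP, against 14.8 to 21.7 CPM with a mean of 18.5 ± 2.63 in control. The lines did not overlap, and the log2 fold change was 3.18 (SE 0.10, adjusted p = 1.04e-18). *Pola1*, the catalytic subunit of DNA polymerase α, rose by 3.06 on the log2 scale, *Clspn*, the checkpoint adaptor claspin, by 2.95 and *Mcm4*, a subunit of the replicative helicase, by 2.66. *Pcna*, the replication clamp, averaged 109 ± 22.8 CPM in organoid AKP, against 36.1 ± 7.41 CPM in control, and its rise was larger within E (2.10) than within F (1.04, adjusted p of the difference = 9.05e-06). Of 40 genes of the mitotic spindle and kinetochore, 39 were higher and 1 lower, with sums of 9239 to 10720 CPM in organoid AKP against 1218 to 1604 CPM in control. *Top2a*, topoisomerase IIα, was at 1293 to 1564 CPM (median 1437) in organoid AKP, against 132 to 213 CPM (median 179) in control, a log2 fold change of 3.02 (SE 0.09, adjusted p = 9.31e-20). The proliferation antigen *Mki67* averaged 410.5 ± 56.9 CPM in organoid AKP, against 64.8 ± 17.2 CPM in control. *Nusap1*, a spindle microtubule binder, rose by 3.19, *Ccnb1*, the mitotic cyclin B1, by 3.13 and *Cdca8* and *Incenp*, members of the chromosomal passenger complex, by 3.11 and 2.59. The exception was securin (*Pttg1*), at 41.6 ± 6.51 CPM in organoid AKP, against 52.7 ± 3.69 CPM in control, a log2 fold change of −0.36 that was not called within letter E alone.

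Sequence 5′ of these genes is shown because replication and mitotic genes are known to carry different short elements there. In RefSeq promoter windows of GRCm38.p6 (250 bases before to 50 after the start), the E2F letters TTTCCCGC or TTTGGCGC, on either strand, were found at 12 of the 32 replication genes with a window (37.5%), at 0 of 33 mitotic genes and at 486 of all 27025 genes (1.80%). The CHR letters TTTGAA, an element of genes expressed in G2 and mitosis, were found at 24 of 33 mitotic genes (72.7%), 6 of 32 replication genes (18.8%) and 20.2% of all genes. Such matches are descriptions and not shown to be bound sites. Capitals mark the motif, and a motif on the opposite strand reads as its reverse complement. Not every chromosome entered the choice of the stretches shown. Among the members that entered and held the motif before the start, the 3 of each list with the smallest p are given. For E2F these are *Pola1* (chrX:93632261-93632318, minus strand), *Mcm7* (chr5:138172016-138172073, minus) and *Mcm6* (chr1:128359720-128359777, minus). For CHR they are *Top2a* (chr11:99024190-99024237, minus), *Prc1* (chr7:80294421-80294475, plus) and *Ube2c* (chr2:164769875-164769928, plus).
Pola1: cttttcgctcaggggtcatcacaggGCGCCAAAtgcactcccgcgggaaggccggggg
Mcm7: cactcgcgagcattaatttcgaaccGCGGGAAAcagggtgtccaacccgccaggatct
Mcm6: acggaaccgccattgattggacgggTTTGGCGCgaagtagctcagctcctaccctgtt
Top2a: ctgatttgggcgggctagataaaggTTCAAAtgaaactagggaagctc
Prc1: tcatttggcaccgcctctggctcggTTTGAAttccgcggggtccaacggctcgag
Ube2c: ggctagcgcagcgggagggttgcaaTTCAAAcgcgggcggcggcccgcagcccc

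Of 16 cyclin, cyclin-dependent kinase and inhibitor genes, 10 were higher (62.5%) and 6 lower (37.5%, near the lower share of all genes), with sums of 4088 to 4593 CPM in organoid AKP against 4580 to 5245 CPM in control. *Cdk4*, the G1 kinase partner of D cyclins, rose by 1.92, *Ccnd2* (cyclin D2) by 1.31, *Ccnd1* (cyclin D1) by 0.80 and *Cdk2* by 1.52 on the log2 scale, whereas the retinoblastoma gene *Rb1*, a brake on E2F, fell by 1.77. *Cdkn2a*, the locus of p16 and ARF, averaged 208 ± 19.2 CPM in organoid AKP, against 128 ± 4.54 CPM in control. Targets of p53 went mostly the other way, with 8 of 33 higher and 24 lower, 20 of them by at least 1 log2 unit. Their summed level was 1534 to 2019 CPM in organoid AKP against 5258 to 5916 CPM in control. *Cdkn1a*, which encodes the cyclin-dependent kinase inhibitor p21, was at 47.00 to 269 CPM (median 149) in organoid AKP, against 2254 to 2502 CPM (median 2266) in control. Its log2 fold change was −4.16 (SE 0.40, adjusted p = 4.53e-06), larger in size within E (−5.26) than within F (−3.24, adjusted p of the difference = 5.51e-05). *Ccng1*, cyclin G1, changed by −3.74, the antiproliferative gene *Btg2* by −4.91, the RNA-binding gene *Zmat3* by −2.85 and *Mdm2*, the ubiquitin ligase that degrades p53, by −1.03. The death receptor *Fas* had no count in organoid AKP and 181 counts over the control libraries, at least 62.9-fold lower against a floor of 3 counts over 6 libraries. *Eda2r*, a TNF receptor family member, had 1 count in organoid AKP and 828 in control, a ratio of 863 with a 95% exact (Clopper-Pearson) interval of 154 to 34140 that covers counting error only, as do all such intervals and floors here.

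Growth and nucleotide genes were mostly higher in organoid AKP too. Of 29 MYC-linked and ribosome biogenesis genes, 25 were higher and 4 lower, with a median log2 fold change of 1.89. *Myc* itself was at 28.9 to 74.5 CPM (median 55.1) in organoid AKP, against 4.30 to 24.8 CPM (median 12.8) in control, and the F libraries of each line lay above its E libraries. *Dkc1*, the dyskerin pseudouridine synthase, rose by 3.12, the nucleolar GTPase gene *Gnl3* by 2.89 and the ribosome assembly gene *Wdr43* by 2.20. *Mxd4*, a MAX partner that opposes MYC, fell by 3.74. Of 28 nucleotide synthesis genes, 27 were higher and 0 lower, summing to 3462 to 4460 CPM in organoid AKP against 822 to 1411 CPM in control. The mitochondrial folate enzymes *Mthfd2* and *Shmt2*, which supply carbon units for purines and thymidine, averaged 472 ± 21.3 and 246 ± 47.7 CPM in organoid AKP, against 22.6 ± 5.97 and 19.4 ± 3.80 CPM in control. *Mthfd1l* rose by 3.02, *Impdh2*, the entry to guanine nucleotides, by 2.28 and CTP synthase (*Ctps1*) by 2.16 on the log2 scale.

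WNT targets and feedback genes were mostly higher in organoid AKP. The last day was spent without WNT3A and R-spondin, and the part of the media in this difference was not tested. Of 28 WNT targets, 23 were higher and 3 lower in organoid AKP, with a median of 2.95 and sums of 3785 to 5045 CPM in organoid AKP against 1800 to 2522 CPM in control. *Axin2*, the scaffold that feeds back on β-catenin, was at 88.2 to 141 CPM (median 126) in organoid AKP, against 4.69 to 15.3 CPM (median 9.30) in control, a log2 fold change of 3.52 (SE 0.17, adjusted p = 3.29e-13). The inhibitors *Nkd1* and *Notum* averaged 32.2 ± 17.01 and 26.1 ± 17.3 CPM in organoid AKP, against 0.0993 ± 0.186 and 2.20 ± 1.49 CPM in control. *Lef1*, a DNA-binding partner of β-catenin, had 366 counts in organoid AKP and 2 in control, a ratio of 176 (48.2 to 1455). In this list *Nkd1*, *Lef1*, *Ascl2* and *Tnfrsf19* stayed under 1 CPM in every control library, so they passed the filter through organoid AKP alone. *Znrf3*, which removes Frizzled receptors from the surface, rose by 2.91, and *Cd44*, a hyaluronan receptor, by 1.80. The TCF/LEF letters CTTTGA, which overlap the CHR letters, were found on either strand in the promoter windows of 4 of 20 WNT targets (20%) and of 18.2% of all genes.

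Of 19 intestinal stem cell markers, 14 were higher and 4 lower. Among the higher ones, *Ascl2* and *Tnfrsf19* passed the filter through organoid AKP alone. *Lgr5*, the R-spondin receptor of crypt base cells, was at 63.5 to 100 CPM (median 70.5) in organoid AKP, against 4.60 to 18.6 CPM (median 11.1) in control, and rose more within E (3.54) than within F (2.11, adjusted p of the difference = 0.000372). *Ascl2*, a transcription factor of stem cell fate, was at 37.3 to 59.5 CPM in organoid AKP, against 0 to 0.868 CPM in control. *Sox9*, a progenitor factor, averaged 852 ± 61.8 CPM in organoid AKP, against 86.7 ± 13.7 CPM in control, a log2 fold change of 3.29. *Tnfrsf19* (TROY), a TNF receptor family member of stem cells, was at 101 to 163 CPM in organoid AKP, against 0 to 0.463 CPM in control. The stem and progenitor marker *Prom1* went the other way, at 209 ± 35.2 CPM in organoid AKP, against 1362 ± 72.99 CPM in control. Of 25 WNT ligands, receptors and secreted regulators, 12 were higher (48%) and 9 lower (36%), the lower share near that of all genes. The Frizzled receptor *Fzd5* changed by −3.75, the R-spondin receptor *Lgr4* by −2.54 and the ligand *Wnt4* by −4.08, whereas the related receptor *Lgr6* was at 22.3 to 118 CPM in organoid AKP, against 0 to 0.354 CPM in control. Fetal-like and regenerative genes were mixed (9 of 25 higher, 14 lower), with *Clu*, a marker of revival cells in mouse intestine, changed by −2.84, *Ly6d* by −2.11 and *Sprr1a* by −3.72 on the log2 scale. Hippo-YAP targets had 12 of 25 higher and 7 lower, with *Amotl1* up by 1.11, *Edn1* (endothelin 1) changed by −2.56 and *Birc5* (survivin), which is also a mitotic gene, up by 2.60.

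**Figure D2:**
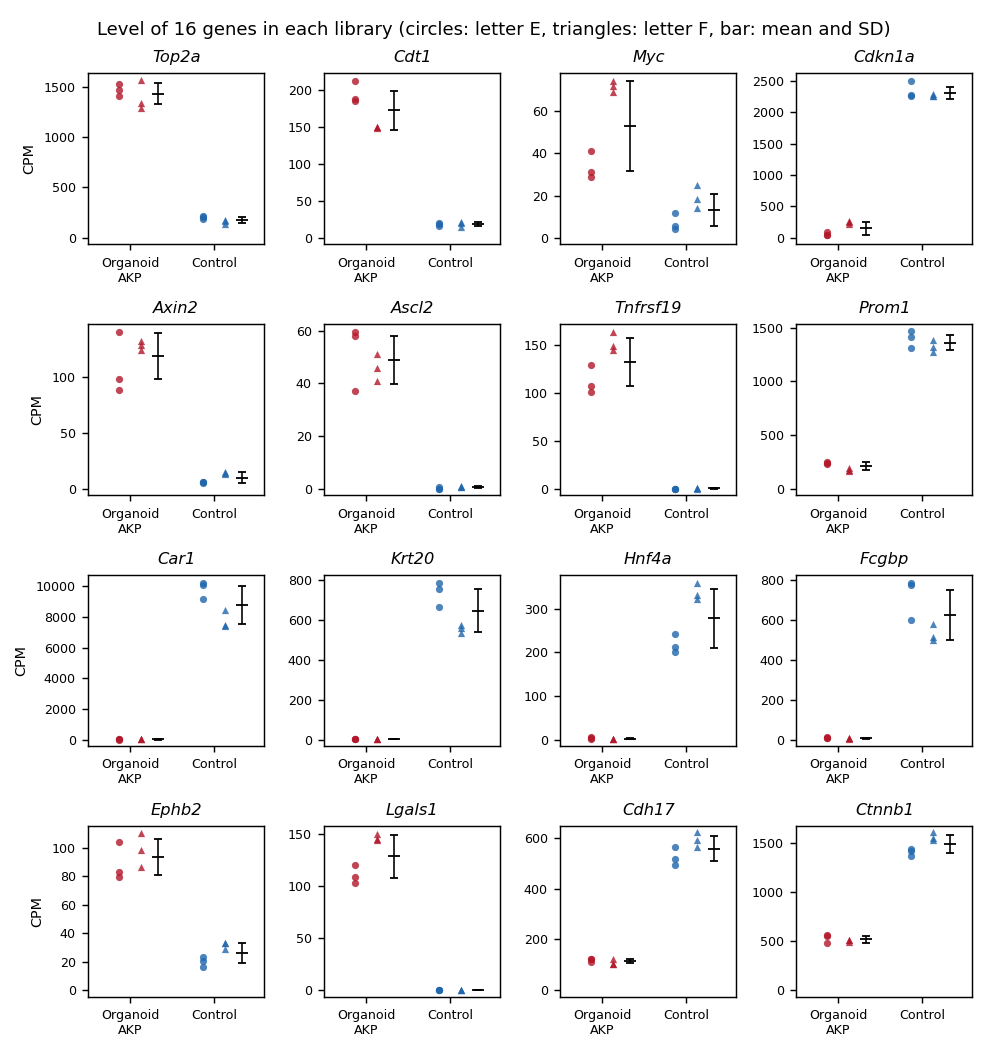
Level in CPM of 16 genes in each library, organoid AKP left and control right, with circles for letter E, triangles for letter F and bars for the mean and SD of 6 libraries. The lines do not overlap in any panel, with *Top2a* at 1293 to 1564 CPM in organoid AKP, against 132 to 213 CPM in control and *Car1* at 0.797 to 25.6 CPM in organoid AKP, against 7427 to 10230 CPM in control.

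Differentiated colonocyte genes were lower in organoid AKP, many of them close to 0. Of 46 tested colonocyte and brush border genes, 0 were higher and 44 lower, 40 by at least 1 log2 unit, and the median log2 fold change was −6.41, or −6.01 with genes uncounted in a line at their bound. The list summed to 2481 to 2806 CPM in organoid AKP, against 20310 to 24620 CPM in control. *Car1*, carbonic anhydrase 1 of surface colonocytes, was at 0.797 to 25.6 CPM (median 3.18) in organoid AKP, against 7427 to 10230 CPM (median 8814) in control, a log2 fold change of −10.38 (SE 0.55, adjusted p = 3.18e-08). The highest of the organoid AKP values was that of replicate 2, which also kept the most of the other strongly lowered genes. Over 91 genes of any kind that were lower by at least 8 log2 units, without *Car1*, the summed level of replicate 2 was 0.446% of the control mean. The other organoid AKP libraries were at 0.0603% to 0.177%. *Krt20*, a keratin of differentiated epithelium, averaged 0.901 ± 0.413 CPM in organoid AKP, against 646 ± 106 CPM in control. *Alpi*, intestinal alkaline phosphatase, averaged 0.203 ± 0.266 and 197 ± 27.9 CPM in the same order, and *Guca2a* (guanylin) 0.630 ± 1.13 and 294 ± 27.1 CPM. *Slc26a3*, the chloride and bicarbonate exchanger, had 1 count in organoid AKP and 1251 in control, a ratio of 1304 (234 to 51560). The sulfate transporter *Slc26a2* and carbonic anhydrase 2 (*Car2*) changed less, by −3.69 and −2.74 on the log2 scale.

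Transcription factors of intestinal identity fell as well. *Hnf4a*, a nuclear receptor of enterocyte differentiation, was at 0.672 to 5.07 CPM (median 1.11) in organoid AKP, against 201 to 359.5 CPM (median 283) in control, a log2 fold change of −7.30 (SE 0.29, adjusted p = 5.6e-11). The HNF4 letters CAAAGTCCA were found on either strand at 1 of 39 colonocyte genes with a promoter window (2.56%) and at 0.555% of all genes. Of 38 homeobox and regional identity genes, 6 were higher and 18 lower. *Cdx2*, which specifies intestine, fell by 2.54, its relative *Cdx1* had 2 counts in organoid AKP and 231 in control (ratio 120.4, 32.96 to 1000), and the intestinal homeobox gene *Isx* fell by 2.15. *Hoxa13*, a hindgut gene, changed by −3.79 and *Osr2* by −3.82 on the log2 scale, and *Irx3* rose by 4.82. *Rhox5*, a homeobox gene of the X chromosome known from the reproductive tract, was at 378 to 1294 CPM in organoid AKP, against 0.708 to 9.82 CPM in control, and its F libraries were the higher ones in organoid AKP.

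Goblet genes had 2 of 22 members higher and 13 lower, and summed to 196 to 268 CPM in organoid AKP against 1902 to 2438 CPM in control. *Fcgbp*, a mucus structural protein, averaged 6.71 ± 2.46 CPM in organoid AKP, against 626 ± 126 CPM in control, and the mucin glycosyltransferase *Gcnt3* averaged 85.4 ± 9.23 and 398 ± 23.5 CPM. *Muc2*, the gel-forming mucin that defines goblet cells, was low in both lines, at 1.43 ± 1.49 CPM in organoid AKP, against 4.09 ± 2.52 CPM in control. *Foxa2*, a factor of secretory cells, rose by 3.26. Few enteroendocrine genes passed the filter (5 tested), and *Cadps*, a regulator of granule release, had 254 counts in organoid AKP and 0 in control, at least 81.2-fold higher, although it was not called within letter E alone. The hormone gene *Sct* (secretin) had 1 count in organoid AKP and 121 in control (ratio 126, 22.2 to 5023). Of 22 tuft cell genes only 7 passed the filter, and 5 of these were higher. Among them were *Avil* (advillin) at 39.6 ± 8.06 CPM in organoid AKP, against 0.326 ± 0.260 CPM in control and *Ptgs1* (cyclooxygenase 1) at 209 ± 60.9 and 15.6 ± 3.36 CPM. The defining tuft gene *Dclk1* had 39 counts in organoid AKP and 1 in control (ratio 37.4, 6.33 to 1515). *Avil* and *Dclk1* stayed under 1 CPM in every control library, so they passed the filter through organoid AKP alone. Notch pathway genes had 5 of 14 higher (35.7%, near the higher share of all genes) and 3 lower, with the ligand *Jag1* up by 1.07 and *Hes6*, a HES family member, by 0.69.

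Genes that handle drugs, retinoids and bile acids were among the largest losses. Of 35 xenobiotic and retinoid genes, 4 were higher and 30 lower, with sums of 235 to 363 CPM in organoid AKP against 2814 to 3837 CPM in control. In this list 10 genes had no count in a line, so they passed the filter through the other line alone. The pregnane X receptor *Nr1i2* and the bile acid receptor *Nr1h4* had no count in organoid AKP, against 959 and 1158 counts in control, at least 333-fold and 402-fold lower. The bile acid transporter *Slc10a2* was at least 596-fold lower (0 counts in organoid AKP, 1714 in control), and *Ceacam20*, a brush border adhesion protein, at least 620-fold (0 and 1784). *Ces2e*, a carboxylesterase, had 1 count in organoid AKP and 3262 in control, a ratio of 3401 (610 to 134400), and near-identical *Ces2* copies may share reads. *Abcb1a*, the drug efflux pump P-glycoprotein, averaged 3.02 ± 2.21 CPM in organoid AKP, against 664 ± 101 CPM in control. The cytochrome P450 genes *Cyp2c55* and *Cyp4f14* averaged 0.302 ± 0.414 and 0.253 ± 0.237 CPM in organoid AKP, against 289 ± 29.2 and 273 ± 24.4 CPM in control, and the sulfotransferase *Sult1b1* averaged 0.237 ± 0.373 and 200.3 ± 15.6 CPM. *Upk1b* (0 and 1416 counts, at least 492-fold), *Clec2e* (0 and 1231, at least 428-fold), *Lrrc19* (0 and 996, at least 346-fold), *Prss30* (0 and 998, at least 347-fold) and *Apol10a* (0 and 981, at least 341-fold) were the other uncounted genes among the 12 largest losses. *Lypd8*, which keeps flagellated bacteria off the colon surface, averaged 0.523 ± 0.996 CPM in organoid AKP, against 649 ± 95.5 CPM in control.

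Metabolic lists differed in direction. Genes of the amino acid stress response, which the factor ATF4 drives, were mostly higher in organoid AKP, 25 of 28 higher and 1 lower, 24 by at least 1 log2 unit, with sums of 6224 to 7304 CPM in organoid AKP against 1600 to 1834 CPM in control. *Atf4* itself averaged 1032 ± 152 CPM in organoid AKP, against 244 ± 22.8 CPM in control. *Trib3*, a pseudokinase induced by this pathway, was at 212 to 334 CPM (median 271) in organoid AKP, against 4.25 to 15.9 CPM (median 7.64) in control, a log2 fold change of 4.82 (SE 0.24, adjusted p = 1.29e-09). *Slc7a5*, the large neutral amino acid transporter, rose by 4.71, asparagine synthetase (*Asns*) by 3.45, *Psat1* of serine synthesis by 3.34, the asparaginyl-tRNA synthetase *Nars1* by 2.41 and *Slc7a11*, the cystine transporter, by 2.07 on the log2 scale. The letters TGATGCAA, the core of the amino acid response element (CARE), were found on either strand at 7 of the 20 list genes with a promoter window (35.0%) and at 1.03% of all genes. Here too, not every chromosome entered the choice of the stretches shown. Among the list genes that entered and held the element before the start, the 3 with the smallest p are given. The element is in capitals, and *Slc7a11* holds it on each strand. The genes are *Pycr1* (proline synthesis, chr11:120643819-120643876, minus strand), *Slc7a11* (chr3:50443628-50443685, minus) and *Vldlr* (lipoprotein receptor, chr19:27216795-27216852, plus).
Pycr1: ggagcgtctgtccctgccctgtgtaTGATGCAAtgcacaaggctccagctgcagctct
Slc7a11: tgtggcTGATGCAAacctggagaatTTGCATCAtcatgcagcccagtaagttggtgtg
Vldlr: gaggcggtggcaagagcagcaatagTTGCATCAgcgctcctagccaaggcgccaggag

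Energy pathways showed no common direction. Of 30 glycolysis genes, 10 were higher and 12 lower, shares of 33.3% and 40% that lie close to the 38.7% and 38.3% of all genes. Aldolase A (*Aldoa*) averaged 974 ± 219 CPM in organoid AKP, against 2127 ± 392 CPM in control, *Hk1* changed by −0.95 and *Gpi1* by −0.86, and lactate dehydrogenase A (*Ldha*) by −0.31, which was not called within letter E alone or with library sizes in place of TMM. *Car9*, a hypoxia-induced carbonic anhydrase, fell by 1.62, and *Vegfa*, the angiogenic factor, rose by 1.16. Of 43 nuclear genes of oxidative phosphorylation, 6 were higher and 18 lower, and only *Uqcrq*, a complex III subunit, changed by at least 1 log2 unit (1.32). These splits depend on the scaling: with library sizes alone, glycolysis genes were 11 higher and 9 lower and oxidative phosphorylation genes 13 higher and 15 lower. Mitochondrially encoded genes were lower in 6 of 8 cases, with cytochrome b (*mt-Cytb*) at 3302 ± 496 CPM in organoid AKP, against 8393 ± 846 CPM in control. Of 23 citrate cycle and anaplerosis genes, 8 were higher and 13 lower, and the NADP-dependent isocitrate dehydrogenases parted. Cytosolic *Idh1* averaged 119 ± 15.4 CPM in organoid AKP, against 674 ± 170.2 CPM in control, whereas mitochondrial *Idh2* averaged 132 ± 10.6 and 51.3 ± 11.6 CPM. Glutamine synthetase (*Glul*) changed by −3.21 and pyruvate carboxylase (*Pcx*) by −2.30 on the log2 scale.

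Lipid and redox genes were mostly lower in organoid AKP. Fatty acid oxidation and PPAR target genes had 2 of 30 higher and 24 lower, with sums of 1033 to 1084 CPM in organoid AKP against 3003 to 3386 CPM in control. *Cpt1a*, which commits fatty acids to mitochondrial oxidation, was at 17.8 to 24.3 CPM in organoid AKP, against 148 to 188 CPM in control. The carnitine carrier *Slc25a20* changed by −4.39 and the thiolase *Acaa2* by −2.67. Cholesterol synthesis genes had 1 of 28 higher and 23 lower, 9 by at least 1 log2 unit. *Hmgcs1*, an early enzyme of the pathway, averaged 442 ± 39.8 CPM in organoid AKP, against 1265 ± 112 CPM in control, and *Nsdhl* and *Stard4* changed by −1.41 and −1.24 on the log2 scale. Fatty acid synthesis and esterification genes had 3 of 25 higher and 15 lower, with *Dgat2*, a triglyceride synthase, changed by −3.17, *Acss2*, which makes acetyl-CoA from acetate, by −2.48 and *Acsl3* by −1.70. Antioxidant and glutathione genes had 4 of 39 higher and 28 lower, with sums of 5883 to 6700 CPM in organoid AKP against 13850 to 16320 CPM in control. *Nfe2l2* (NRF2), the regulator of many of them, changed by −1.36, *Txn1* (thioredoxin) by −1.66, *Gsto1* by −3.27, *Gsta4* by −4.51, *Aldh1a1* by −3.98 and *Cbr1* by −2.54 on the log2 scale. *Gpx2*, the gastrointestinal glutathione peroxidase, went against its list, at 281 ± 36.04 CPM in organoid AKP, against 82.4 ± 25.9 CPM in control, and rose within E by 2.34 and within F by 1.29 (adjusted p of the difference = 3.71e-06). Glutathione transferase genes have close paralogs whose 3′ reads may be shared.

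**Figure D3:**
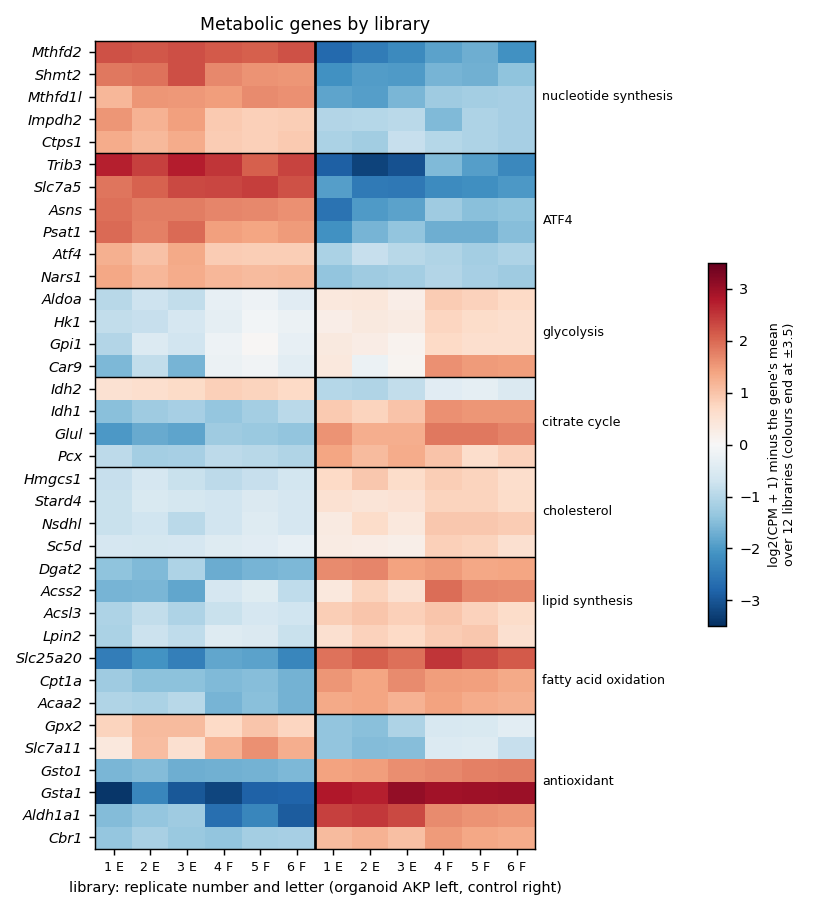
Metabolic genes (rows) in the 12 libraries (columns, organoid AKP left and control right), coloured by log2(CPM + 1) minus the mean of the gene over all libraries, with colours ending at ±3.5. Nucleotide and ATF4 genes are red in all organoid AKP columns, lipid and most antioxidant genes are blue there, the glycolysis genes shown are pale blue to near white, and *Idh2*, *Gpx2* and *Slc7a11* are red among neighbours that are blue.

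Adhesion genes changed in both directions, with junction genes mostly lower in organoid AKP. Of 24 adherens junction and desmosome genes, 4 were higher and 19 lower, summing to 3747 to 4801 CPM in organoid AKP against 8988 to 9861 CPM in control. *Ctnnb1*, which encodes β-catenin of both junctions and WNT signalling, was at 478 to 559 CPM (median 514) in organoid AKP, against 1368 to 1618 CPM (median 1486) in control, a log2 fold change of −1.52 (SE 0.07, adjusted p = 2.74e-16). *Cdh17*, the intestinal cadherin, averaged 115 ± 8.81 CPM in organoid AKP, against 558 ± 47.5 CPM in control, and E-cadherin (*Cdh1*) averaged 740.3 ± 57.6 and 1329 ± 85.8 CPM. The desmosomal cadherin *Dsg2* fell by 1.42. Tight and gap junction genes had 7 of 27 higher and 18 lower. The claudins parted, with *Cldn15* changed by −6.81, *Cldn23* by −3.65 and *Cldn3* by −1.66, while *Cldn2*, a pore-forming claudin of crypts, averaged 9.71 ± 5.26 CPM in organoid AKP, against 0.362 ± 0.233 CPM in control. Integrin, laminin and collagen genes had 10 of 32 higher and 17 lower, with the collagen receptor subunit *Itga2* changed by −5.15 and the laminin chain *Lamb3* by −2.16, and with *Itgb7*, known from lymphocyte homing, up by 5.15 and the basement membrane collagen *Col18a1* by 2.69 on the log2 scale.

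Galectin, CEACAM and mucin-type adhesion genes had 6 of 28 higher and 20 lower, with sums of 2877 to 3143 CPM in organoid AKP against 12840 to 13640 CPM in control. *Lgals3*, a galectin of the surface epithelium, averaged 294 ± 12.2 CPM in organoid AKP, against 4043 ± 231 CPM in control, and *Lgals1* was at 103 to 150 CPM in organoid AKP, against 0 to 0.708 CPM in control, an opposite change within the family. *Ceacam1* changed by −2.63, the A33 antigen gene *Gpa33* by −2.73 and the membrane mucin *Muc13* by −8.57 on the log2 scale. Eph receptors and ephrins, which sort crypt cells by position, had 6 of 15 higher and 3 lower. The crypt base receptor *Ephb2* averaged 93.6 ± 12.5 CPM in organoid AKP, against 26.03 ± 7.04 CPM in control, and its ligand *Efnb1* averaged 86.8 ± 24.1 and 366 ± 15.5 CPM. Genes of epithelial-mesenchymal transition and matrix proteases had 8 of 25 higher and 10 lower. *Twist1*, a transition factor, was at 0.266 to 10.4 CPM in organoid AKP, with its F libraries above its E libraries, and had no count in control (at least 58.8-fold higher). The serine protease *Prss23* changed by −4.65 and the membrane metalloprotease *Mmp15* by −3.01, while the kallikrein *Klk10* rose by 3.76.

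Among signalling genes, ERK output genes were mostly higher in organoid AKP. The last day was spent without EGF, and the part of the media in this difference was not tested. Of 26 ERK feedback and output genes, 18 were higher and 4 lower. The ERK-responsive ETS factors *Etv4* and *Etv5* averaged 44.6 ± 6.89 and 32.98 ± 3.83 CPM in organoid AKP, against 1.85 ± 0.944 and 2.29 ± 0.588 CPM in control, and the AP-1 subunit *Fosl1* rose by 3.18, the feedback inhibitor *Spry4* by 4.06, *Phlda1* by 1.86 and the ERK phosphatase *Dusp6* by 0.51. Of 12 genes of the EGF receptor family and its ligands, 4 were higher (33.3%) and 5 lower (41.7%). Among the lower ones, *Egfr* changed by −1.85, *Erbb2* by −2.84 and *Erbb3* by −1.93. Among FGF, IGF, KIT and MET receptors and ligands (9 of 22 higher, 9 lower), *Fgfr2* averaged 0.540 ± 0.597 CPM in organoid AKP, against 62.2 ± 11.9 CPM in control, the KIT ligand *Kitl* fell by 1.26 and the insulin receptor substrate *Irs1* rose by 1.89. Of 34 TGFβ and BMP genes, 13 were higher and 15 lower, with *Bmp3* changed by −4.68, the BMP target *Id1* by −2.49 and the activin antagonist *Fst* up by 3.60 on the log2 scale. The EGF receptor, FGF and TGFβ lists had shares of higher and lower members close to those of all genes, and so did the transition and protease list.

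Immune-facing genes of the epithelium were mostly lower in organoid AKP. Chemokine and cytokine genes had 1 of 27 higher and 22 lower, summing to 399 to 548 CPM in organoid AKP against 1932 to 2243 CPM in control. The neutrophil chemokine *Cxcl5* averaged 3.10 ± 0.716 CPM in organoid AKP, against 196 ± 56.9 CPM in control, the cytokine *Il18* 1.08 ± 0.936 and 117 ± 14.7 CPM, and *Pigr*, which carries IgA into the lumen, 4.20 ± 1.96 and 374 ± 41.8 CPM. *Ccl28*, which attracts IgA-secreting cells, had 1 count in organoid AKP and 990 in control, a ratio of 1032 (185 to 40810). Interferon response and MHC class I genes had 5 of 34 higher and 20 lower, with *Irf1* changed by −1.65, *Irf7* by −3.01 and the peptide-loading gene *Tapbp* by −1.81 on the log2 scale. The class I heavy chain *H2-K1*, a gene with close paralogs, averaged 388 ± 26.96 CPM in organoid AKP, against 774 ± 68.9 CPM in control.

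Among the 12 largest rises of genes that averaged 5 CPM or more in organoid AKP, 8 genes had no count in control. The water channel *Aqp5* had 897 counts over the organoid AKP libraries, at least 287-fold higher, and *Ism1* (isthmin) had 538, at least 172-fold. *Cnfn* (cornifelin) had 519 counts (at least 166-fold), the small heat shock gene *Hspb8* 395 (at least 126-fold), *Cryba4*, a lens crystallin, 341 (at least 109-fold), the potassium channel *Kcnk2* 315 (at least 101-fold), the metalloprotease *Adam19* 314 (at least 100.4-fold) and the neurotrophin receptor *Ngfr* 300 (at least 95.9-fold). *Otop1*, a proton channel, had 1979 counts in organoid AKP and 2 in control, a ratio of 949 (262 to 7842), and *Faim2* had 1003 and 1 (ratio 962, 172 to 38040). *Tnfrsf19* and *Lgr6*, described above, completed them. Over all genes, 123 called genes had no count in organoid AKP and 88 had none in control, and with such genes at their bound 546 genes were higher and 736 lower by at least 3 log2 units. The most counted nuclear-encoded genes with a symbol were *Actb* in organoid AKP and *Malat1* in control, and *Malat1*, a nuclear long non-coding RNA, averaged 5324 ± 1697 CPM in organoid AKP, against 17130 ± 7814 CPM in control. Of 12 heat shock and dissociation genes, 5 were higher and 5 lower (41.7% each, near the shares of all genes), with the cytosolic chaperone *Hsp90aa1* up by 2.21 and inducible *Hspa1b* changed by −2.18.

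For most genes called in both letters, organoid AKP differed from control in the same direction in each. Within E alone 8769 genes were called and within F 9565, and of the 7785 called in both, 7687 had the same direction and 98 the opposite. The size of the change differed between letters for 1875 genes (14.7%), with a log2 fold change that was higher in F than in E for 869 and lower for 1006, 492 of them by at least 1 log2 unit. The immediate-early factor *Fos* had the smallest p of the difference, at 116 CPM (E) and 328 CPM (F) in organoid AKP, against 590.1 CPM (E) and 299.5 CPM (F) in control. Its log2 fold change was −2.33 within E and 0.11 within F (adjusted p of the difference = 6.88e-20). *Lgals4*, a galectin of the brush border, was at 474 to 537 CPM (E) and 103 to 127 CPM (F) in organoid AKP, and at 3921 to 4453 CPM over both letters in control. The log2 fold change of the transferrin receptor *Tfrc* was −0.16 within E and −2.10 within F, that of the interferon-inducible *Mndal* −3.55 and −1.89, that of the glycosyltransferase *Mgat4c* −3.38 and −4.68, and that of the laminin chain *Lama3* −3.44 and −1.11. The median change had the same sign in both letters for 41 of 46 lists, among them DNA replication (2.88 in E, 2.17 in F), colonocyte (−5.88 and −6.54), ATF4 (2.30 and 1.98) and junction genes (−1.17 and −1.03). It had opposite signs for enteroendocrine genes (−1.57 in E, 0.17 in F), the EGF receptor family (−0.72 and 0.11), heat shock genes (−0.56 and 0.45), TGFβ genes (−0.40 and 0.01) and nuclear oxidative phosphorylation (0.04 and −0.22). What the letter stands for, and its part in these differences, was not tested, and depth moved with it.

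**Figure D4:**
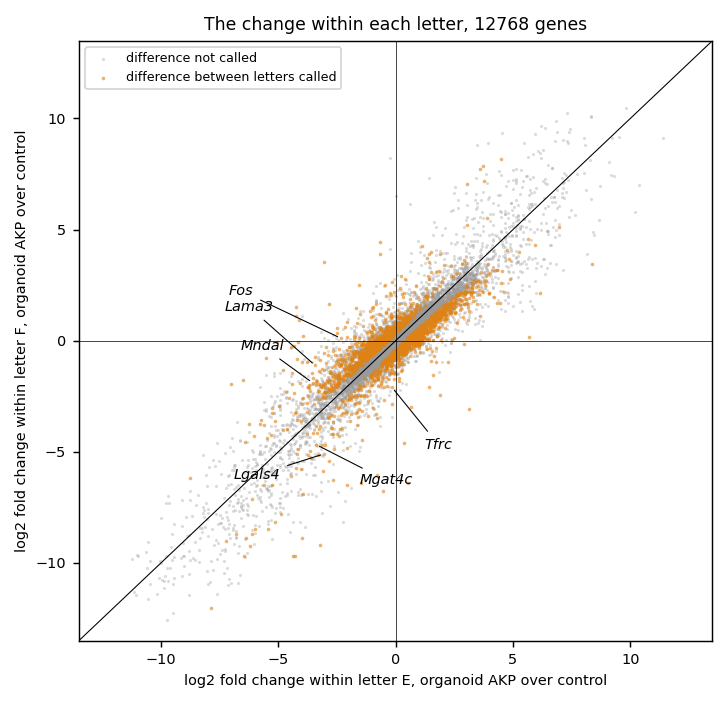
Log2 fold change of organoid AKP over control within letter E (horizontal) and within letter F (vertical) for the 12768 genes tested, with orange points for the 1875 genes whose change differed between letters. Most points lie along the diagonal, and *Fos* lies at −2.33 in E and 0.11 in F.

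The other AKP lines of the series, scaled together with these, gave the levels of organoid AKP a context, as means without a test. *Krt20* averaged 0.922 CPM in organoid AKP, 0.535 to 3.63 CPM over the 5 mini-colon AKP lines and 0.463 CPM in in vivo AKP, against 645 CPM in control. *Car1* averaged 7.17, 2.16 to 14.9 and 2.67 CPM in the AKP lines in that order, against 8804 CPM in control, and *Top2a* 1466, 985 to 1447 and 1506 CPM, against 178 CPM. For these genes all AKP lines stood on the same side of control. *Rhox5* averaged 832 CPM in organoid AKP, above the mini-colon lines (5.93 to 30.8 CPM), in vivo AKP (3.25 CPM) and control (3.93 CPM). *Lgr6* averaged 68.4 CPM in organoid AKP, 7.62 to 31.1 CPM in the mini-colon lines and 3.45 CPM in in vivo AKP, against 0.169 CPM in control. *Vim* averaged 11.7 CPM in organoid AKP, 4.54 to 66.6 CPM in the mini-colon lines and 145 CPM in in vivo AKP, against 0.179 CPM in control. *Trp53* averaged 1.77 CPM in organoid AKP, 2.22 to 9.86 CPM in the mini-colon lines and 25.5 CPM in in vivo AKP, against 17.1 CPM in control, so the level in in vivo AKP was not below control. The mini-colon lines had 3 libraries each under a single letter and in vivo AKP 6 under both.

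**Figure D5:**
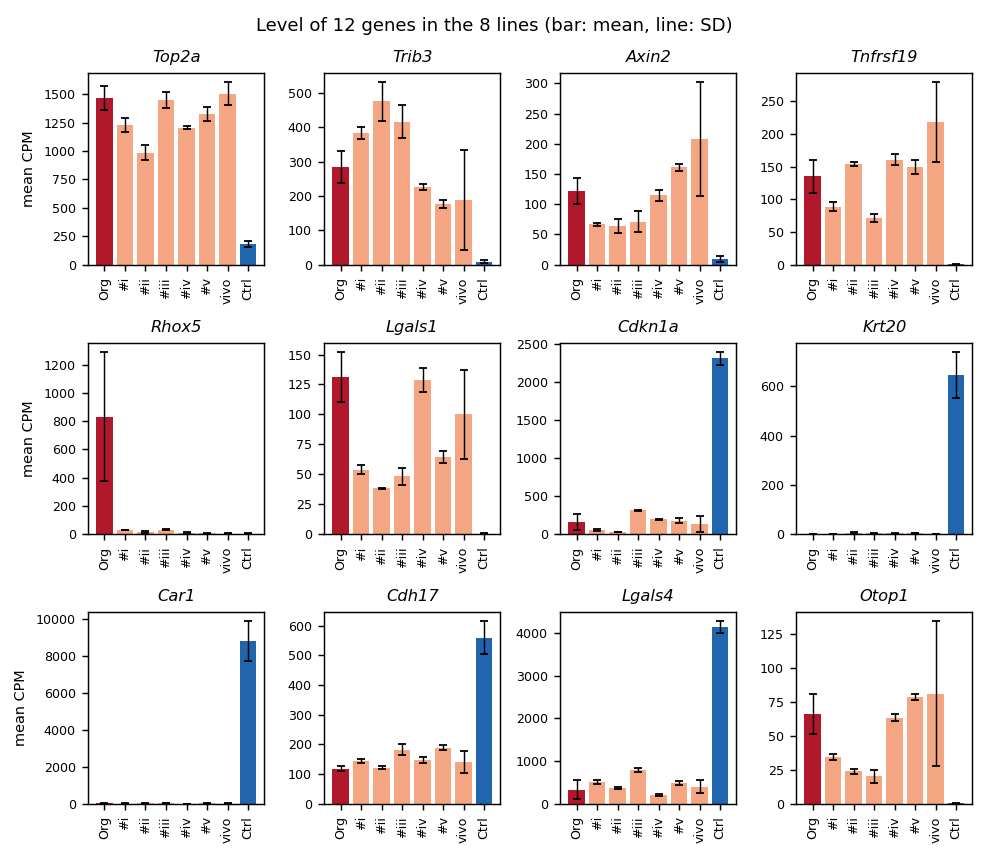
Mean level in CPM of 12 genes in organoid AKP (Org), mini-colon AKP lines #i to #v, in vivo AKP (vivo) and control (Ctrl), with the SD as a line over 6 libraries for organoid AKP, in vivo AKP and control and 3 for each mini-colon line. *Krt20*, *Car1* and *Cdkn1a* stand highest in control, and *Rhox5* stands highest in organoid AKP.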

How the data were processed

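Mouse colon organoid libraries were made with QuantSeq from poly(A) RNA, and the authors deposited raw counts per Ensembl gene identifier, whole numbers without normalization. Reads were aligned to GRCm39 with STAR (the paper), and R 4.1.2, edgeR and limma are named in the processing notes. The counting tool, its annotation and its strand setting are not given in the sources used here, so overlapping and antisense genes cannot be told apart. Each file held 32285 identifiers, 31674 of which were named from GENCODE M39. The other 611 held 7.26% of the counts of the 12 libraries, 7.18% in a single identifier (ENSMUSG00000098178), and stayed in the fit.

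A gene entered if 3 or more of the 12 libraries had 1 CPM or more of it, which 12768 did. After TMM scaling, edgeR 4.0.16 (R 4.3.3) fitted line plus letter and ran its quasi-likelihood test with robust dispersion, with Benjamini-Hochberg adjustment over all tested genes. A second model with line, letter and their interaction tested whether the change differed between letters. Alternatives used limma 3.58.1 (voom), DESeq2 1.42.0, other scaling, filters and sample sets. Tables were made with pandas 2.3.3 and figures with matplotlib 3.10.9 (Python 3.11.15). The code was tested on simulated data. No pair of libraries within a line and letter agreed within counting noise (chi-square per degree of freedom 2.46 to 9.77 over 12 pairs, genes with a summed count of at least 30), and each library counted once. Separate preparations of the same culture could also exceed counting noise, so these values cannot show that the libraries are independent.

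The 46 gene lists (1243 symbols, 1008 tested) and the members were chosen with earlier results of these data known. Named genes were the 12 largest changes in each direction among called genes without overlap that averaged at least 5 CPM in the higher line, the 4 called members of each list with the smallest p, the engineered genes, the 6 smallest interaction p and the 5 highest levels in each line. Further members, among them *Cdkn1a*, *Myc*, *Axin2*, *Lgr5*, *Hnf4a*, *Trib3*, *Gpx2*, *Twist1* and *Rhox5*, and other members given without being called, were named after their values were seen. A fold against a line without counts used a floor of 3 counts over its 6 libraries. Promoter windows and sequences came from RefSeq (GRCm38.p6), matched by symbol. Some genes and alleles are not reported here.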

Additional observations from a re-analysis of the deposited data

Results flagged for a closer look

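Among 496 sets of 6 values (248 named genes in each line), 26 (5.24%) held a value whose gap to the nearest other exceeded Dixon's limit for 6 samples. For normally distributed values, chance alone flags about 1 in 20. A set with counts in only 1 library always exceeds the limit, so the share found here cannot be set against that rate. Of the flagged values, 10 were those of organoid AKP replicate 2, most of them in genes that were nearly lost from the line. There *Car1* was at 25.64 CPM (other organoid AKP libraries 0.797 to 8.10), *Muc13* at 9.497 (0.521 to 2.12), *Guca2a* at 2.849 (0 to 0.797), *Lypd8* at 2.533 (0 to 0.333), *Sult1b1* at 0.9497 (0 to 0.333) and *Ces2e* at 0.3166 CPM (0 in the others). The same library had *Ccl28* at 0.3166 CPM (0 in the others), *Mxd4* at 32.61 CPM (17.3 to 21.4), *Lgr5* at 100 CPM (63.5 to 76.9) and *Bmp8b* at 41.16 CPM (57.9 to 66.0). The other organoid AKP values were *Trp53* in replicate 3 at 3.718 CPM (1.04 to 1.68), *Ldha* in replicate 1 at 1492 CPM (1101 to 1193), *Etv5* in replicate 4 at 39.94 CPM (28.9 to 33.1), and *Sct*, *Slc26a3* and *Eda2r* in replicate 4 at 0.1736 CPM each, with 0 in the others.

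In control, *Cdkn1a* was at 2502 CPM in replicate 1 (2254 to 2293 in the others) and *Mxd4* at 345.4 CPM in the same library (263.6 to 292.5). *Lgr4* was at 126.8 CPM in replicate 2 (166.5 to 189 in the others), where *Irx3* was at 3.187 CPM (4.30 to 4.94), and *Cdca8* was at 55.32 CPM in replicate 6 (37.5 to 43.4). Single values above 0 or near it stood out for genes that control hardly expressed, *Otop1* in replicate 3 at 0.3857 CPM (0 to 0.133 in the others), *Nkd1* in replicate 4 at 0.4632 CPM (0 to 0.133), *Faim2* and *S100a8* in replicate 4 at 0.1544 CPM each and *Dclk1* in replicate 5 at 0.1736 CPM, with 0 in the others. The share of strongly lowered transcripts in organoid AKP replicate 2 is given in the report, and where it came from was not tested.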

How the results depend on the processing

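Counts of called genes in each direction stayed within 1.5 times of those reported under the alternatives fixed beforehand. Higher and lower genes numbered 4823 and 4918 with DESeq2, 4971 and 4902 with limma-voom, 4627 and 4583 without the letter, 5432 and 4449 with library sizes alone, which moved the median of all genes by 0.11 on the log2 scale, and 4695 to 4868 and 4771 to 4937 with 1 library left out. With the replicate block (replicate number as a term) they numbered 4783 and 4712. Samples of the same number did not pair (correlation of deviations within line and letter −0.04 to 0.03). The interaction was called for 1450 to 2122 genes with 1 library left out. Of the counts of list members, 2254 stayed within 1.5 times and 46 did not.

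Of 248 named genes 247 were called, and 11 lost a call or turned direction in at least 1 of 25 settings, 10 of them within letter E alone, where 6 libraries remained. *Fos* (−1.05) was 0.106 within F alone, and was not called with the replicate block (adjusted p = 0.14), library sizes alone (0.0695) or without any of 7 libraries (0.0572 to 0.116, edgeR). *Cadps*, *Tac1*, *S100a8*, *Nkd1*, *Tfrc*, *mt-Nd1*, *Pttg1*, *Ldha* and *Ddx3y* lost their call within E alone, *Ddx3y* (adjusted p = 0.249) and *mt-Nd1* (0.0539) also without the letter and *Ldha* (0.0822) with library sizes alone (edgeR). The uncalled ENSMUSG00000098178 (0.07) was −0.112 within E alone, 0.227 and called within F alone, and −0.089 and 0.186 without organoid AKP replicates 2 and 1. The causes were not tested.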

Other observations

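Most autosomes had a median change near that of all genes, and chromosome 19 had the lowest, also within each letter. Of all genes, 38.7% were called higher and 38.3% lower. The median log2 fold change was −0.30 on chromosome 19 (133 genes called higher and 227 lower of 456), 0.19 on chromosome 4 (364 and 251 of 805) and 0.19 on chromosome 18 (146 and 87 of 307), and lay between −0.12 and 0.14 on the other autosomes and X. The medians within letters E and F were −0.38 and −0.32 for chromosome 19, 0.20 and 0.14 for chromosome 4 and 0.15 and 0.26 for chromosome 18.

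Of 6 tested genes of chromosome Y, 5 were called lower and 1 higher. *Eif2s3y* averaged 16.7 CPM in organoid AKP, against 43.6 CPM in control, *Uty* 9.51 and 25.3 CPM, *Kdm5d* 11.5 and 28.6 CPM and *Ddx3y* 66.7 and 82.4 CPM. The call of *Ddx3y* was lost within E alone (log2 fold change −0.03, adjusted p = 0.8) and without the letter as a term (−0.32, 0.249, edgeR). All 4 were counted in every library of both lines.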
